A study of Mus musculus with 8 samples.

Results

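The miR-15/16 family is a set of small regulatory RNAs (miRNAs) that share the bases with which they pair to their targets. Its 6 probes on the NanoString nCounter mouse miRNA panel (mmu-miR-15a, mmu-miR-15b, mmu-miR-16, mmu-miR-195, mmu-miR-322 and mmu-miR-497, given here without the prefix) were chosen by name and make up 6 of 566 mouse miRNA probes. All 6 were on the panel and none was left out. The study asked which miRNAs Müller glia (MG), the main glial cells of the retina, express in the adult mouse, at postnatal day 11/12 (P11) and in culture, compared with retinal neurons. All mice were labelled Rlbp-Cre:tdTomato, a cross of an inducible CreER driven by the MG gene Rlbp1 with a tdTomato reporter behind a floxed stop. Tamoxifen (75 mg/kg), which activates the CreER and so switches on the red reporter, was given at P9 and P10 for the P11 pools and on consecutive days after P21 for the adult pools. Fresh cells were sorted into the tdTomato-positive MG and the tdTomato-negative rest, called neurons, which holds every retinal cell without the reporter, both pooled from 40 retinas in the adult and 32 retinas at P11. The cultured MG came from P11/12 retinas (20 retinas per the labels), for which the labels give the same tamoxifen dose. They grew with serum and epidermal growth factor, were passaged at 6 days in vitro (DIV) and were taken at 8 DIV or 14 DIV.

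A miRNA acts through bases 2 to 8 of its 5′ end, the seed, which pairs with messenger RNAs and lowers their translation or stability. The miR-15/16 family is known for holding back the cell cycle through targets such as cyclins D1 and E1 and for lowering the survival protein Bcl2. In many tissues the family is higher in cells that have left the cell cycle, and in the postnatal mouse heart miR-195 is known to limit the division of muscle cells. miR-322, named miR-424 in humans, is made from a cluster on the X chromosome together with miR-503 and has been studied mostly in muscle and in blood vessels.

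The mature sequences are shown because the seed unites the family and the bases behind it decide which probe a member binds. They come from RefSeq (assembly GRCm38.p6), run 5′ to 3′ and carry bases 2 to 8 in capitals.
miR-15a: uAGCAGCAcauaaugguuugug
miR-15b: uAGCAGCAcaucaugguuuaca
miR-16: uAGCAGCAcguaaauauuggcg
miR-195: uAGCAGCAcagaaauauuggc
miR-322: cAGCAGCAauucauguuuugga
miR-497: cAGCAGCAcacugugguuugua
miR-503: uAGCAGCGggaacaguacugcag
All 6 members carried the same bases 2 to 8. miR-503, the neighbour of miR-322, was not a member and differed from them in the last base of the seed. miR-15a and miR-15b differed at 4 of 22 bases, and miR-16 and miR-195 at 2 of 21 bases, the smallest number among the members. RefSeq listed 10 mature mouse miRNAs with these bases 2 to 8, and the 4 without a panel probe of their own were miR-195b, miR-6342, miR-6353 and miR-6419.

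The members come from 4 places in the genome. miR-15a lies at chr14:61632075-61632096 on the minus strand inside the long noncoding RNA gene Dleu2, with Mir16-1 54 bases away. miR-15b lies at chr3:69009775-69009796 on the plus strand inside Smc4, a protein-coding gene for a condensin subunit that packs chromosomes at mitosis, with Mir16-2 66 bases away. miR-497 (chr11:70234730-70234751) and miR-195 (chr11:70235062-70235082) lie on the plus strand with 241 bases between their hairpins, and no annotated gene of the table contains them. miR-322 lies at chrX:53054306-53054327 on the minus strand inside the noncoding gene C430049B03Rik, 200 bases from Mir503. The 2 hairpins that yield miR-16 are shown because the mature miRNA, in capitals, is identical in both, so the miR-16 probe counts the product of the Dleu2 and the Smc4 locus together.
Mir16-1: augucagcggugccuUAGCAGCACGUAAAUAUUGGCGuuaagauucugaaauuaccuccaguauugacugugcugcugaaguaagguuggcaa
Mir16-2: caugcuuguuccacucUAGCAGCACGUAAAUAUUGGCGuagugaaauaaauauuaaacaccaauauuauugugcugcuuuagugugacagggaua

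Each condition was 1 pooled sample counted once, with no replicate, so no test between conditions was possible. The 95% Poisson intervals given here cover counting error only. A ratio interval sets the lower limit of each pool against the upper limit of the other and is therefore wider than 95%. The raw miRNA counts summed to between 275042 and 696712 per pool, and 129 to 186 mouse miRNAs exceeded the background of their pool (52.8 to 106 counts), set 2 SD above the average of its 8 negative control probes. Values called normalized here are raw counts with the average negative control subtracted, scaled to the sum of 4 housekeeping mRNAs and given on the scale of adult MG. Beside them stand values scaled to equal totals of mouse miRNA counts, because the housekeeping factor was 3.46 in adult neurons against 1.20 in P11 neurons, and the factor from equal totals 2.02 against 2.66. The MG miRNAs miR-9, miR-204 and miR-125b-5p took 60.1% of the counts in adult MG against 2.93% in adult neurons. They took 47.3% in P11 MG against 9.90% in P11 neurons, with 30.8% at 8 DIV and 29.1% at 14 DIV. The study named them as MG miRNAs from the adult pools used here, so their adult shares are no independent check of the labels. In the sorted pools fewer cells of a type and less miRNA per cell cannot be told apart.

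The family ran from one of the most abundant miRNAs of the retina down to probes without signal. miR-16, the member with the highest counts, gave 6325 raw counts in adult MG, 11079 in P11 MG, 9313 in adult neurons, 7279 in P11 neurons, 10192 at 8 DIV and 5088 at 14 DIV. It ranked between place 7 and place 19 among the mouse miRNAs of each pool. miR-15b, the member inside Smc4, gave 847 counts in adult MG, 3089 in P11 MG, 1036 in adult neurons, 2760 in P11 neurons, 3580 at 8 DIV and 1032 at 14 DIV. By raw counts, P11 MG, P11 neurons and 8 DIV were high for miR-15b (2760 or more). Adult MG, adult neurons and 14 DIV were low (1036 or fewer). miR-15a, the member inside Dleu2, gave 475 counts in adult MG, 1678 in P11 MG, 892 in adult neurons, 1984 in P11 neurons, 2361 at 8 DIV and 561 at 14 DIV. The same 3 pools were high (1678 raw counts or more) and the same 3 low (892 or fewer), with adult MG lowest. For both miRNAs this grouping of raw counts did not hold with housekeeping scaling, as given below.

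miR-322 gave 125 counts in adult MG, 700 in P11 MG, 55 in adult neurons, 120 in P11 neurons, 325 at 8 DIV and 183 at 14 DIV. P11 MG stood above all other pools, and adult neurons were at background. miR-195 lay at 96 counts in adult MG and at 122 in P11 MG, just above the background of those pools (71.7 and 106). In adult neurons (38), P11 neurons (36), at 8 DIV (34) and at 14 DIV (24) it was at background, although miR-16, its closest relative in sequence, had 10192 counts at 8 DIV. miR-497, made from the same locus as miR-195, stayed at background in all 6 pools, with 16 to 77 counts.

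**Figure D1:**
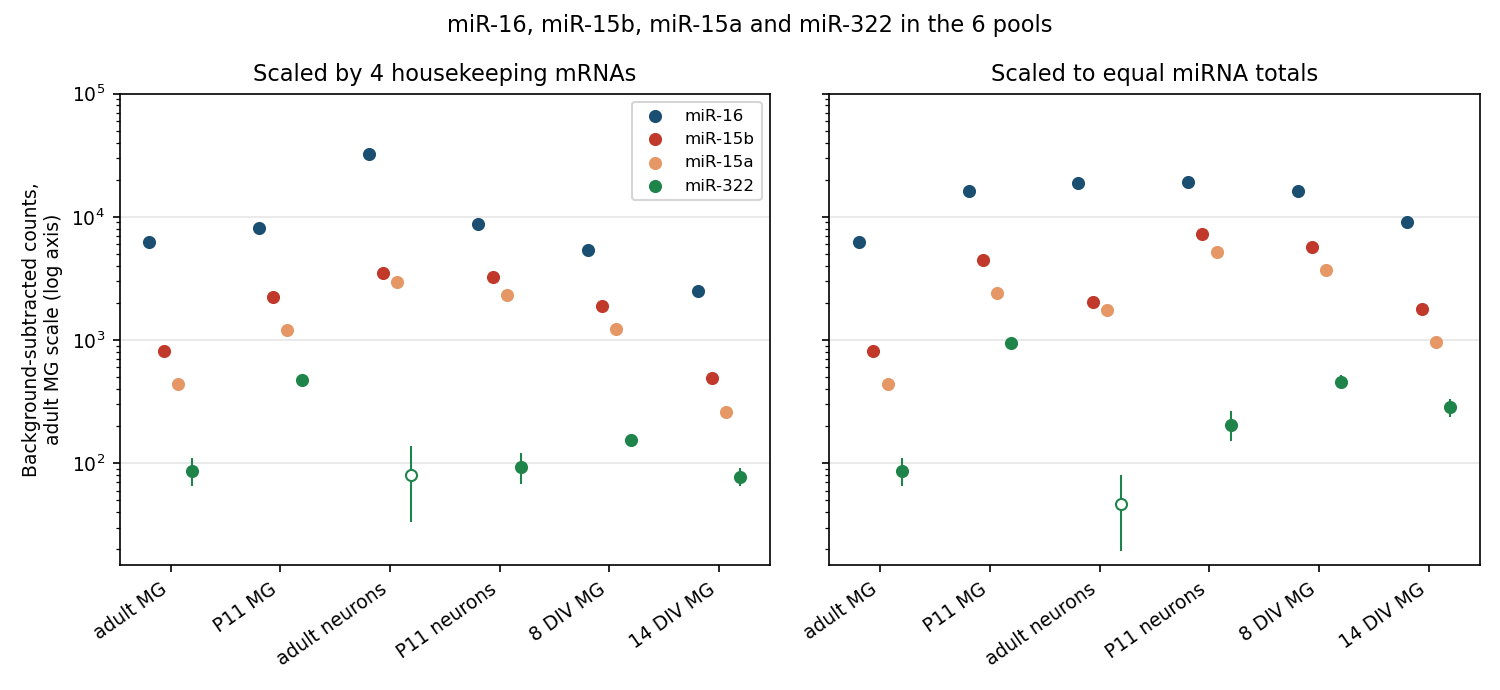
Normalized counts of miR-16, miR-15b, miR-15a and miR-322 (log axis) in the 6 pools, with housekeeping scaling and with equal totals; bars are 95% Poisson intervals of the single count and open circles are values at background. miR-15a is below miR-15b in each pool, and adult MG is below P11 MG for each of the 4 members in both scalings.

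**Figure D2:**
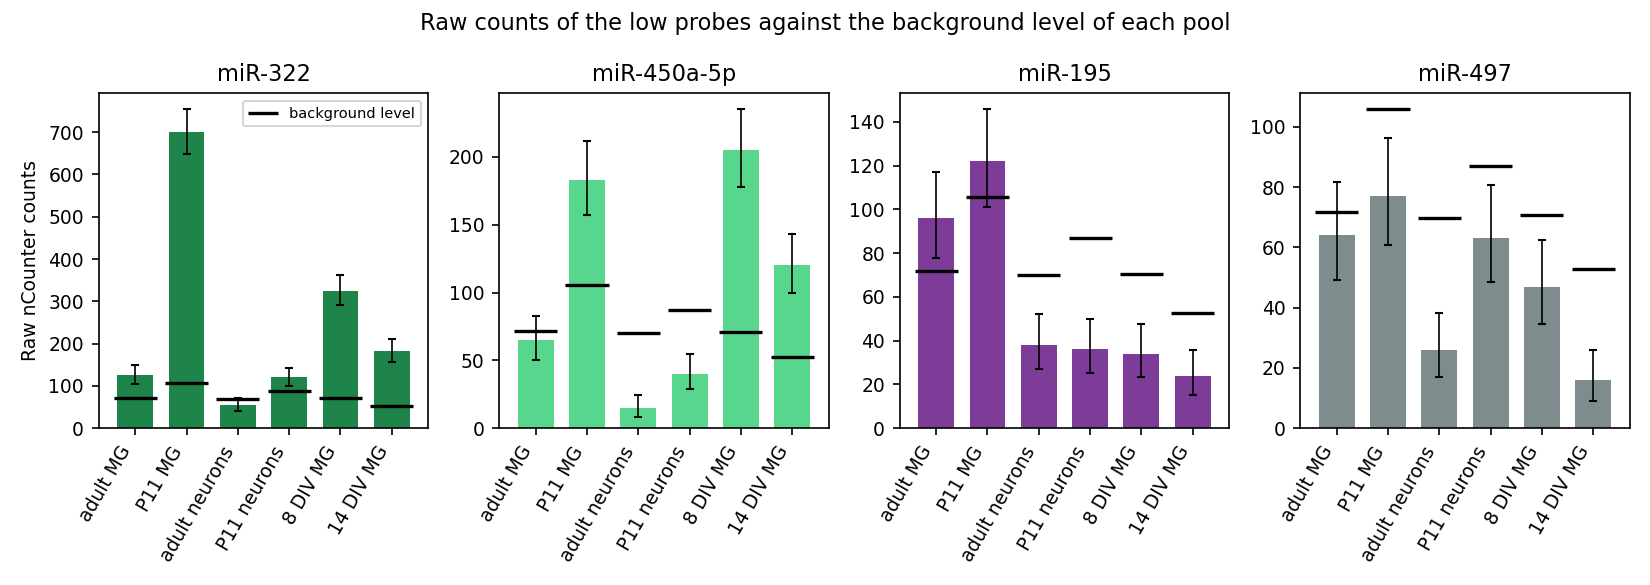
Raw counts of the low probes, the members miR-195, miR-322 and miR-497 and the X-linked miR-450a-5p, in each pool, with 95% Poisson intervals; the black line is the background of that pool. miR-322 reaches 700 counts in P11 MG, while miR-497 lies below background in all 6 pools.

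The order of the pools depended on the scaling. With housekeeping scaling miR-16 was highest in adult neurons (32154 normalized counts), then P11 neurons (8689), P11 MG (8121), adult MG (6286), 8 DIV (5417) and 14 DIV (2480), and no neighbouring intervals overlapped. With equal totals P11 neurons (19217) and adult neurons (18784) did not differ beyond counting error, nor did P11 MG (16186) and 8 DIV (16156), and 14 DIV (9041) and adult MG (6286) came last. For miR-15b and miR-15a, housekeeping scaling put adult neurons highest (3479 and 2980) and 14 DIV lowest (494 and 263). With equal totals P11 neurons, 8 DIV and P11 MG were the highest for both, then adult neurons (2032 and 1741), and adult MG was lowest. miR-322 was highest in P11 MG and second at 8 DIV under both scalings (478 and 154 normalized counts with housekeeping scaling). With housekeeping scaling the other 4 pools (77.9 to 93.1) did not differ from their neighbours in that order beyond counting error, and with equal totals 14 DIV (284) and P11 neurons (206) lay above adult MG (86.4). The 6 probes together took 1.14% of the mouse miRNA counts in adult MG, 3.56% in P11 MG, 3.33% in adult neurons, 4.70% in P11 neurons, 3.83% at 8 DIV and 1.78% at 14 DIV. By that share adult MG devoted the least of their miRNA signal to the family. A share also depends on the other miRNAs of the pool. With housekeeping scaling the 6 probes summed to 7700 normalized counts in adult MG and 14 DIV was lowest (3315).

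Against neurons, the 3 abundant members were lower in adult MG. miR-15a had 436 normalized counts in adult MG against 2980 in adult neurons, 6.83-fold lower (ratio 0.146, 0.124 to 0.173). miR-15b had 808 in adult MG against 3479 in adult neurons, 4.30-fold lower (0.232, 0.203 to 0.266), and miR-16 had 6286 in adult MG against 32154 in adult neurons, 5.11-fold lower (0.196, 0.187 to 0.205). Of 5 members measured, 3 were lower at 2-fold, where 56.3% of the 199 mouse miRNAs measured were also lower. The median log2 ratio was -2.11 for the members and -1.36 for all measured miRNAs. With equal totals the ratios were 0.251 for miR-15a, 0.398 for miR-15b and 0.335 for miR-16, still lower at 2-fold, where 40.7% of all miRNAs were. miR-15a was lower under all 8 scalings tried and miR-15b and miR-16 under 7 of 8, the exception being Gapdh alone (log2 ratios of 0.27 and 0.024). The 2-fold limit was passed under 6 of 8 scalings for miR-15a, 3 of 8 for miR-15b and 4 of 8 for miR-16, and with the positive controls by none of them (log2 ratios of -0.96, -0.29 and -0.54). With housekeeping scaling miR-322 was level within counting error, at 86.4 normalized counts in adult MG against 80.1 in adult neurons (ratio 1.08, 0.475 to 3.33), the neuron value being at background. This depended on the scaling, as miR-322 was higher in adult MG under 7 of 8 scalings and past 2-fold under 5. Its log2 ratios ran from -0.91 (Actb alone) to 2.49 (Gapdh alone). With values raised to the background level the log2 ratio of miR-322 was -0.61. miR-195 was above background in adult MG and not in adult neurons, and the neuronal background was too high on this scale to give a bounded fold. By its subtracted value (2.70, 0.557 to 22.7) it was the 1 member of 5 counted as higher, where 18.6% of all miRNAs were. With values raised to the background level its log2 ratio turned to -1.20. Erythroid miRNAs (miR-451, miR-144 and miR-486) lay above background in adult neurons (3 of 3, miR-451 with 1599 counts, together 0.522% of the counts), in P11 neurons only for miR-451 (371 counts, 0.140% for the list) and in none of the MG pools, and their part in the difference was not tested.

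At P11 the abundant members differed less between MG and neurons, and miR-322 was higher in MG. miR-322 had 478 normalized counts in P11 MG against 93.1 in P11 neurons, 5.14-fold higher (3.64 to 7.57), and 4.63-fold higher with equal totals. This was above 2-fold under all 8 scalings tried. miR-450a-5p, made from the same X-linked cluster, gave 183 raw counts in P11 MG against 40 in P11 neurons, the neuron value being at background. That puts it at least 1.83-fold higher in P11 MG before counting error. miR-15a had 1199 normalized counts in P11 MG against 2331 in P11 neurons (ratio 0.514, 0.468 to 0.565), miR-15b had 2238 against 3263 (0.686, 0.637 to 0.738) and miR-16 had 8121 against 8689 (0.935, 0.896 to 0.975). These 3 ratios lay below 1 beyond counting error but inside the 2-fold limit, and with equal totals miR-15a (0.463) passed it, 1 of 5 members where 28.7% of all miRNAs were lower. Their direction turned with the scaling, with miR-15a lower in P11 MG under 6 of 8 scalings, miR-15b under 5 and miR-16 under 4. By the size rule of 2-fold, 2 of 5 measured members were higher, miR-322 and miR-195 (whose neuron value was at background), where 28.1% of 171 measured miRNAs were higher. For miR-195 the neuronal background left no bounded fold, and with values raised to the background level its log2 ratio was -0.019, which leaves miR-322 as the 1 member higher. None of 5 was lower, against 25.7% of all measured miRNAs.

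Between the ages, miR-15a, miR-15b and miR-322 were lower in adult MG than in P11 MG. miR-322 had 86.4 normalized counts in adult MG against 478 in P11 MG, 5.54-fold lower (ratio 0.181, 0.126 to 0.25). It was the fifth lowest ratio of the 179 miRNAs measured. miR-15a had 436 in adult MG against 1199 in P11 MG, 2.75-fold lower (0.364, 0.313 to 0.422), and miR-15b had 808 in adult MG against 2238 in P11 MG, 2.77-fold lower (0.361, 0.324 to 0.402). These 2 probes, whose loci lie on different chromosomes, stood side by side at places 15 and 14 from the lowest. miR-16 moved less, with 6286 in adult MG against 8121 in P11 MG (0.774, 0.741 to 0.809). miR-195 was level within counting error (1.09, 0.558 to 2.10). Thus 3 of 5 measured members were lower at 2-fold in adult MG, where 12.8% of all measured miRNAs were, and the median log2 ratio was -1.46 for the members and 0.41 for all miRNAs. None was higher, against 30.2% of all. miR-15a, miR-15b and miR-322 were lower at 2-fold under all 9 scalings tried, and miR-16 was lower under all 9 and lower at 2-fold under 1 of them, equal totals (0.388), which made 4 of 5 members lower where 30.2% of all miRNAs were. The X-linked neighbour miR-450a-5p gave 65 raw counts in adult MG, at background, against 183 in P11 MG, at least 2.96-fold lower before counting error. The endothelial miRNAs miR-126-3p and miR-126-5p together took 0.0250% of the counts in adult MG against 0.0670% in P11 MG, and their part in the difference was not tested.

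In neurons the housekeeping scaling moved most of the panel, and the members are given relative to that shift. The median log2 ratio of adult to P11 neurons was 1.85 over 156 measured miRNAs, of which 74.4% were higher at 2-fold. miR-16 had 32154 normalized counts in adult neurons against 8689 in P11 neurons (ratio 3.70, 3.54 to 3.87), 0.04 above the panel median on the log2 scale. miR-15a had 2980 in adult neurons against 2331 in P11 neurons (1.28, 1.14 to 1.43), 1.5 below the median, and miR-15b had 3479 against 3263 (1.07, 0.963 to 1.18), 1.76 below it. With equal totals miR-15a was at 0.338 and miR-15b at 0.282 of the P11 level, while miR-16 was at 0.977. The direction turned with the scaling, with miR-15a and miR-15b lower in adult neurons under 5 of 8 scalings each and miR-16 under 2. By the size rule 1 of 4 measured members was higher with housekeeping scaling (miR-16) and none lower, where 3.21% of all miRNAs were, and 3 of 4 were lower with equal totals (miR-15a, miR-15b and miR-322, at background in adult neurons), where 24.4% of all miRNAs were lower. miR-322 had 80.1 normalized counts in adult neurons, at background, and 93.1 in P11 neurons.

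**Figure D3:**
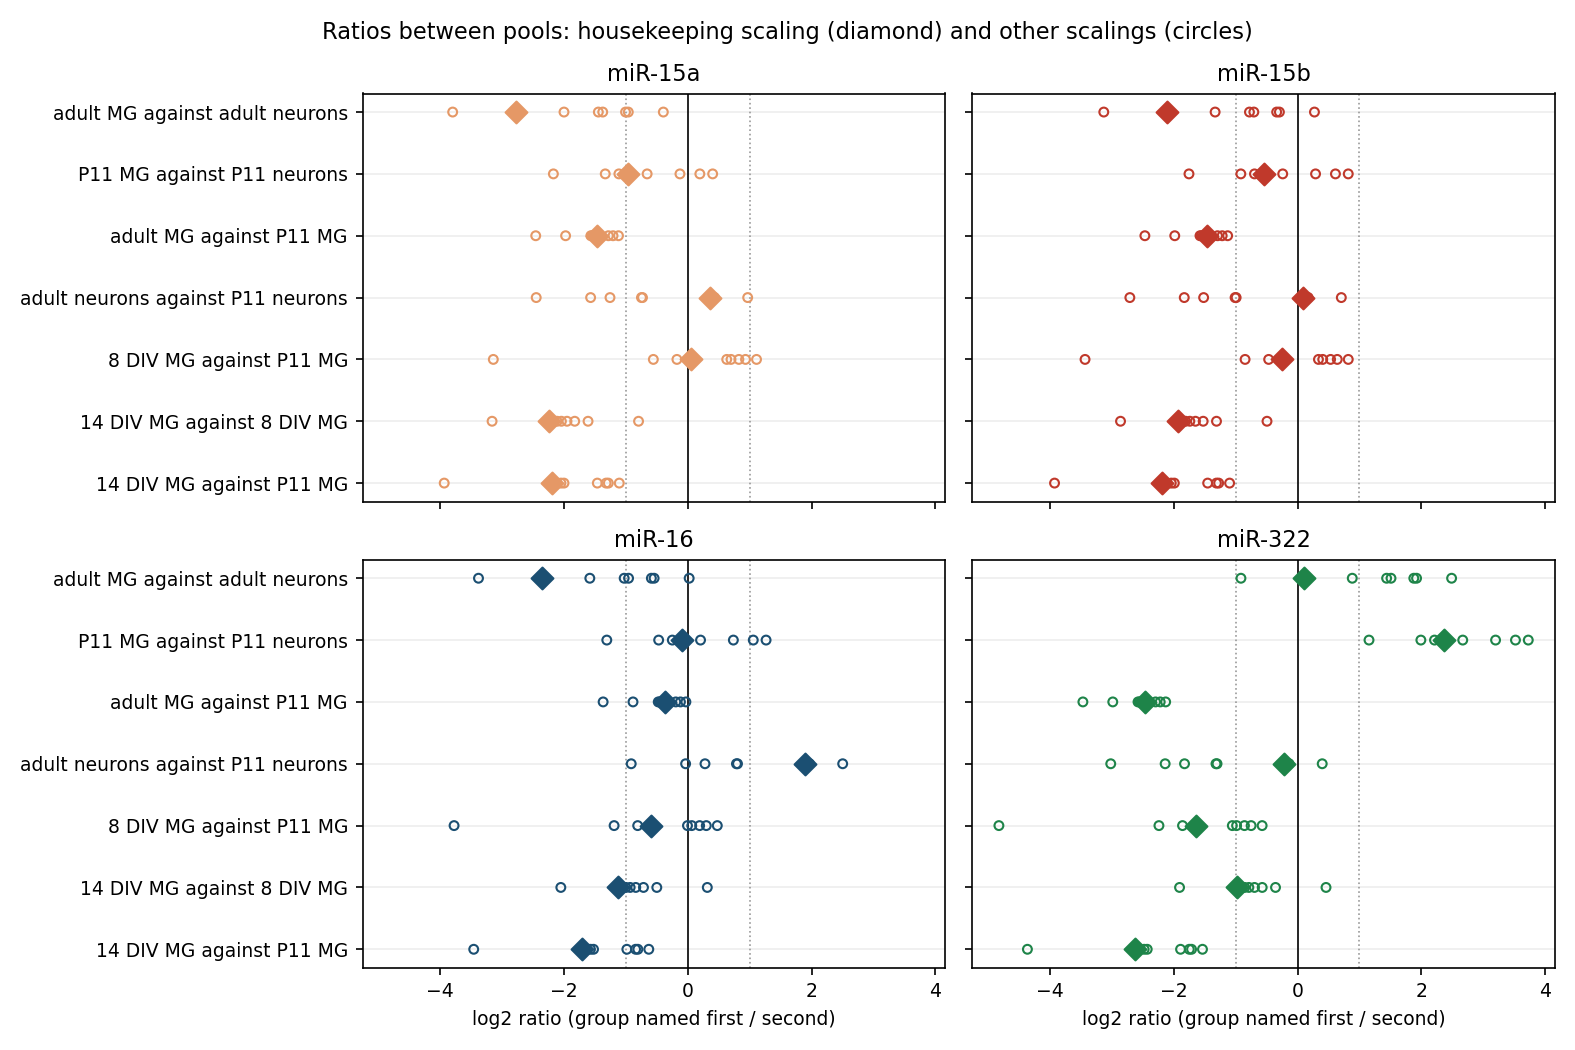
Log2 ratio of miR-15a, miR-15b, miR-16 and miR-322 in each of the 7 comparisons, 1 mark per scaling of the raw counts, with the housekeeping scaling as a diamond and dotted lines at 2-fold. The marks of adult against P11 MG lie below 0 for all 4 members, while those of adult against P11 neurons lie on both sides of 0 for each of them.

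Set against miR-16 in the same pool, a value is free of any scaling between pools. Probes differ in efficiency, so these shares of the miR-16 signal are comparable between pools and are not molar. miR-15a reached 6.94% of the miR-16 signal in adult MG (6.12 to 7.85) and 14.8% in P11 MG (13.8 to 15.8), and it reached 9.27% in adult neurons (8.47 to 10.1) and 26.8% in P11 neurons (25.1 to 28.7). miR-15b reached 12.9% in adult MG and 27.6% in P11 MG, and 10.8% in adult neurons and 37.6% in P11 neurons. Both were thus lower relative to miR-16 in the adult pool of each fraction. For miR-15a the adult share was 0.470 of the P11 share in MG (0.388 to 0.569) and 0.345 in neurons (0.295 to 0.404). For miR-15b it was 0.467 in MG (0.401 to 0.542) and 0.288 in neurons (0.249 to 0.333). Relative to miR-16, 8.99% of 178 measured miRNAs were lower at 2-fold in adult than in P11 MG, and 24.5% of 155 in adult than in P11 neurons.

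miR-322 reached 1.37% of the miR-16 signal in adult MG (1.02 to 1.80) and 5.89% in P11 MG (5.33 to 6.50), against 0.249% in adult neurons, at background, and 1.07% in P11 neurons. Its share was thus 5.51-fold higher in MG than in neurons in the adult (2.32 to 17.8) and 5.50-fold higher at P11 (3.73 to 8.45). Relative to miR-16, 50% of 198 measured miRNAs were higher at 2-fold in MG in the adult, and 28.8% of 170 at P11. Relative to miR-16, miR-322 was 4.29-fold lower in adult MG than in P11 MG. In neurons it was 4.30-fold lower in the adult (ratio 0.233, 0.071 to 0.568), with the adult value at background. The ratio of miR-15a to miR-15b moved within a narrower range. miR-15a was at 54.0% of miR-15b in adult MG, 53.6% in P11 MG, 85.7% in adult neurons, 71.4% in P11 neurons, 65.6% at 8 DIV and 53.3% at 14 DIV. The 2 fresh MG pools did not differ in it beyond counting error, and both neuron pools lay above them.

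**Figure D4:**
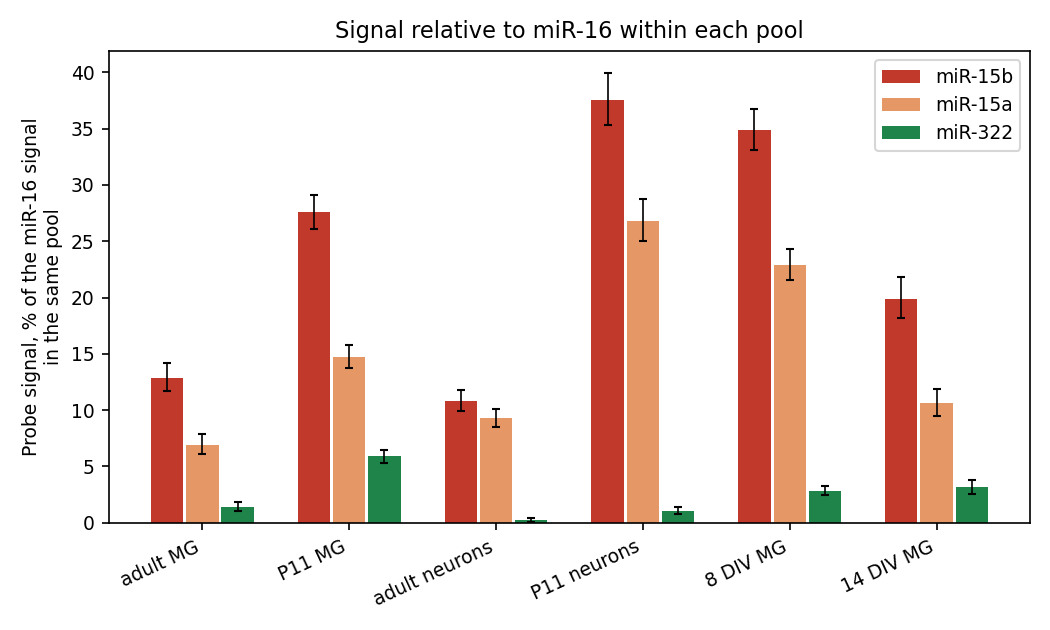
Signal of miR-15a, miR-15b and miR-322 as a percent of the miR-16 signal in the same pool (linear axis), with intervals from the Poisson limits of both counts. miR-15a and miR-15b are lower in adult than in P11 pools, in MG and in neurons, and lower at 14 DIV than at 8 DIV.

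In culture, with housekeeping scaling, miR-322 and miR-195 were lower at 8 DIV than in P11 MG, and all 5 measured members were lower at 14 DIV. After 8 DIV miR-15a had 1240 normalized counts against 1199 in P11 MG (ratio 1.03, 0.945 to 1.13), level within counting error, and 1.55 times the P11 MG level with equal totals. miR-15b had 1890 at 8 DIV against 2238 in P11 MG (0.845, 0.788 to 0.905), and 1.26 times the P11 MG level with equal totals. miR-16 had 5417 at 8 DIV against 8121 in P11 MG (0.667, 0.642 to 0.693), and equal totals brought it level (0.998). For these 3 members the direction turned with the scaling, with miR-15a higher at 8 DIV under 6 of 9 scalings, miR-15b under 5 and miR-16 under 4. miR-322 had 154 at 8 DIV against 478 in P11 MG, 3.10-fold lower (0.322, 0.262 to 0.395), and was lower under all 9 scalings but past 2-fold under 5 of them, with log2 ratios of -0.57 to -0.98 with the positive controls, Actb alone, Gapdh alone and the ligation controls. miR-195 was at background at 8 DIV and at least 2.85-fold lower than in P11 MG before counting error. Its P11 MG value was 52.7 normalized counts (37.5 to 70.2), just above background. So 2 of 5 measured members were lower at 2-fold (miR-322 and miR-195), where 20.9% of 196 miRNAs were, and none was higher, where 19.9% were. With equal totals miR-322 was lower at 2-fold (0.482). miR-195 was also counted, but by a subtracted value at background at 8 DIV, so its 2-fold call there is not secured. Of all miRNAs 12.8% were lower. Relative to miR-16, miR-15a was 1.55 times and miR-15b 1.27 times its P11 MG share at 8 DIV, and miR-322 was at 0.483 of it.

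Between 8 DIV and 14 DIV miR-15a and miR-15b fell most among the measured members. miR-15a had 263 normalized counts at 14 DIV against 1240 at 8 DIV, 4.71-fold lower (ratio 0.212, 0.186 to 0.241), and miR-15b had 494 at 14 DIV against 1890 at 8 DIV, 3.83-fold lower (0.261, 0.237 to 0.287). miR-16 had 2480 at 14 DIV against 5417 at 8 DIV, 2.18-fold lower (0.458, 0.437 to 0.480), and miR-322 had 77.9 against 154 (0.506, 0.376 to 0.677), at the edge of the size rule. Thus 3 of 4 measured members were lower at 2-fold, where 26.9% of 208 miRNAs were, and none was higher, where 9.62% were. With equal totals miR-15a (0.259) and miR-15b (0.319) stayed lower at 2-fold and miR-16 (0.560) did not, 2 of 4 members where 20.7% of all miRNAs were lower. miR-15a and miR-15b were lower at 14 DIV under all 9 scalings, and miR-16 and miR-322 under 8 of 9, B2m alone being the exception. The 2-fold limit was passed under 8 of 9 scalings for miR-15a and miR-15b and under 3 of 9 for miR-16. Against miR-16, miR-15a reached 14.8% in P11 MG, 22.9% at 8 DIV and 10.6% at 14 DIV, and miR-15b reached 27.6% in P11 MG, 34.9% at 8 DIV and 19.9% at 14 DIV. Relative to miR-16, miR-15a was thus 2.16-fold and miR-15b 1.75-fold lower at 14 DIV than at 8 DIV, and miR-322 was level within counting error (1.10, 0.783 to 1.55). Relative to miR-16, 9.18% of 207 measured miRNAs were lower at 2-fold. After 14 DIV all 5 members measured were lower at 2-fold than in P11 MG, where 37.6% of 202 miRNAs were. miR-322 was 6.14-fold, miR-15a 4.56-fold, miR-15b 4.53-fold and miR-16 3.27-fold lower, and miR-195 at least 3.72-fold lower before counting error. With equal totals 4 of 5 were lower at 2-fold, miR-195 by its subtracted value at background, and miR-16 (0.559) was the exception. Of all miRNAs 22.8% were lower. Mesenchymal miRNAs (miR-143, miR-145, miR-199a-3p, miR-199a-5p and miR-214) took 0.00784% of the counts in P11 MG, 0.784% at 8 DIV and 4.61% at 14 DIV, with 4 of 5 above background at 8 DIV and 5 of 5 at 14 DIV. The endothelial list took 0.0670% in P11 MG, 0.0110% at 8 DIV and 0.0111% at 14 DIV, with miR-126-3p above background in each, and the neuronal miRNAs (miR-182, miR-183, miR-96 and miR-124) took 0.495% in P11 MG, 0.341% at 8 DIV and 0.248% at 14 DIV. The part of these lists in the differences was not tested.

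The X-linked cluster of miR-322 gave little other signal. Of its 8 other probes on the panel, miR-503, miR-351, miR-542-3p, miR-450a-3p, miR-450b-3p and miR-450b-5p were at background in all 6 pools. miR-450a-5p gave 65 raw counts in adult MG, 183 in P11 MG, 15 in adult neurons, 40 in P11 neurons, 205 at 8 DIV and 120 at 14 DIV, above background in P11 MG and both cultures. It was level between 8 DIV and P11 MG (ratio 0.923, 0.638 to 1.35), where miR-322 was 3.10-fold lower. miR-542-5p was above background in adult MG (88), barely above it in P11 MG (106) and above it at 8 DIV (93).

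The likeness of other miRNAs to each member was measured as the SD over the 6 pools of the log2 ratio of the 2 probes, among 95 probes above background in all 6. For miR-15a the most alike were miR-19a (SD 0.23), miR-15b (0.28) and miR-19b (0.39), against a median SD of 1.37. For miR-15b they were miR-15a (0.28), the joint probe of miR-106a and miR-17 (0.33) and miR-19a (0.36), against a median of 1.36. miR-19a gave 120 raw counts in adult MG, 389 in P11 MG, 179 in adult neurons, 572 in P11 neurons, 518 at 8 DIV and 130 at 14 DIV, high in the same 3 pools as miR-15a. The joint probe of miR-106a and miR-17 gave 275 counts in adult MG, 1418 in P11 MG, 335 in adult neurons, 1216 in P11 neurons, 1019 at 8 DIV and 297 at 14 DIV, again high in those 3 pools. miR-16, made beside miR-15a and miR-15b, came at place 9 of 95 in likeness to miR-15a (0.76) and place 11 to miR-15b (0.75). In likeness to miR-16, miR-15b came at place 33 and miR-15a at place 35, against a median SD of 0.99. For miR-16 the most alike were miR-423-3p (0.24), miR-101b (0.30) and let-7d (0.34). let-7d gave 11549 counts in adult MG, 14853 in P11 MG, 8852 in adult neurons, 8734 in P11 neurons, 12882 at 8 DIV and 8565 at 14 DIV. For miR-322 let-7c was nearest, with an SD of 0.93 among 96 probes against a median of 1.76, but the miR-322 value in adult neurons was at background, so 1 of its 6 ratios is not measured. Probes at background in any pool, miR-450a-5p among them, were not compared. These SDs describe 6 single pools. A scaling of a pool cancels in the ratio of 2 probes, while counting error and the background subtraction stay in it.

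miR-103 and miR-107, which have been counted with the wider miR-15/107 group for a part of the seed, did not have the same bases 2 to 8. miR-103 gave 468 raw counts in adult MG, 653 in P11 MG, 422 in adult neurons, 315 in P11 neurons, 594 at 8 DIV and 582 at 14 DIV, and miR-107 gave between 81 and 156. The miR-103 raw counts at 8 DIV and 14 DIV were nearly equal, whereas the 3 abundant members had far lower counts at 14 DIV.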

How the data were processed

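RNA of 6 pools (200 ng each per the methods) was counted on the NanoString nCounter mouse miRNA panel. The deposited raw table holds 1 count per probe and pool, left unnormalized by the authors. The deposited value table holds the normalized counts of the authors, read here as a score, in 8 columns because the fresh MG pools stand in both of 2 data sets; they were made in nSolver from the negative and positive controls and the housekeeping mRNAs. All values reported were rebuilt from the raw counts by subtracting the average of the 8 negative controls, keeping a lowest value of 1, and multiplying by a factor from the sum of the 4 housekeeping mRNAs. The check against the deposited scores used a different factor for each column. It was the median ratio of score to subtracted count over probes with at least 500 raw counts, and was thus fitted to the scores. On that scale the members matched the scores within 2 counts or 1 percent. The exception was miR-15a in both cultures, where the deposited scores match the raw counts of miR-23a. The raw table was therefore used for all 6 pools.

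The members and lists were chosen with earlier results of these data known. A miRNA counted as measured in a comparison when it lay above background in either pool, and as higher or lower past 2-fold. With 1 pool per condition no test was run, and the named genes are all 6 members, the miR-322 cluster, miR-103, miR-107 and the 3 most alike probes. A fold against a pool at background is given as at least the ratio of the measured value to the background level of that pool. Counting error of the measured value is not included in it. The 8 scalings were the 4 housekeeping mRNAs together, equal totals of mouse miRNA counts, the geometric mean of the 100 most abundant miRNAs, the positive controls, the ligation controls, and Actb, Gapdh or Rpl19 alone; B2m alone was a ninth among MG pools, and scaling by the median measured miRNA was added after the data were seen. Culture times follow the sample titles and descriptions, since the age labels of the 2 cultures are exchanged. The scripts were tested on simulated data. Sequences and gene positions came from RefSeq tables (GRCm38.p6), matched by name. The analysis ran in Python 3.11.15 (numpy 2.4.6, pandas 2.3.3, matplotlib 3.10.9, scipy 1.17.1).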

Additional observations from a re-analysis of the deposited data

Results flagged for a closer look

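For miR-15a and miR-16 the difference between the ages ran in opposite directions in MG and in neurons with housekeeping scaling, and this difference was not tested, since each value rests on single pools. miR-15a had a log2 ratio of adult to P11 of -1.46 in MG and 0.35 in neurons, a difference of -1.81. miR-16 had -0.37 in MG and 1.89 in neurons, a difference of -2.26. With equal totals the differences were -0.89 for miR-15a and -1.33 for miR-16, and neither ran in clearly opposite directions, since miR-15a was lower in the adult pool of each fraction and miR-16 was lower in adult MG and level in neurons (log2 ratio of -0.033). With the ligation controls the differences turned to 1.16 and 0.72. These controls summed to 6888 counts in P11 neurons, against 16612 in adult neurons, 16885 in adult MG and 25941 in P11 MG. The positive controls of P11 neurons were not low, at 64766 counts. The part of the low ligation counts in the P11 neuron values was not tested.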

How the results depend on the processing

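No paired analysis was possible because each condition is 1 pool, and the fresh MG pools that appear under 2 replicate numbers are the same pools normalized in different data sets. B2m alone was not used against neurons, where it lay at background. In adult MG against adult neurons the main counts were 1 member higher and 3 lower. They became 2 higher and 1 lower with the 100 most abundant miRNAs, the ligation controls or the median measured miRNA, 2 higher and 0 lower with the positive controls or Gapdh alone, and 2 higher with Rpl19 alone, while Actb alone, values raised to background, no background subtraction and a 3-fold limit left 0 higher. Here Gapdh alone turned miR-15b to a log2 ratio of 0.27 and miR-16 to 0.024, and miR-195 turned to -1.20 with values raised to background and -0.46 without subtraction. In P11 MG against P11 neurons (2 higher, 0 lower), 1 was lower with equal totals, Actb alone or a 1.5-fold limit, 3 were lower with the ligation controls, and 1 was higher with values raised to background, where miR-195 came to -0.019. In adult against P11 MG a 3-fold limit left 1 of 3 members lower. In adult against P11 neurons (1 higher, 0 lower), 0 were higher and 3 lower with equal totals, the 100 most abundant miRNAs, the ligation controls or the median, 1 lower with the positive controls and 2 lower with Gapdh alone, and miR-16 turned to -0.033 with equal totals and -0.91 with the ligation controls. In 8 DIV against P11 MG (0 higher, 2 lower), 1 was lower with the positive controls, Gapdh alone, the ligation controls or Actb alone, which also put 1 higher, and 5 were lower with B2m alone. In 14 DIV against 8 DIV B2m alone left 0 of 3 lower and turned miR-16 to 0.32. The deposited values, exchanged for miR-15a, put 1 member higher at 8 DIV and 1 at 14 DIV against P11 MG and gave miR-15a 0.20 between 14 DIV and 8 DIV, 1.58 between 14 DIV and P11 MG and 1.33 relative to miR-16 between 14 DIV and 8 DIV. The other 148 counts of members under these alternatives stayed within 1.5 times the main count. What makes the scalings differ was not tested. Depth limits miR-195, miR-497 and the X-linked cluster, whose counts lie near the negative controls, and single pools leave the spread between mice and cultures unknown.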

Other observations

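In the deposited value table miR-15a stands at 4890 at 8 DIV and 5632 at 14 DIV. Rebuilt on the scale of those scores, its raw counts of 2361 and 561 give 1945 and 413. These rebuilt values stand in the row of the joint probe of miR-106a and miR-17. That joint probe is among the 3 most alike to miR-15b in the raw counts. Immune miRNAs (miR-223, miR-142-3p, miR-142-5p and miR-150) took 0.0484% of the counts in adult MG against 0.0664% in adult neurons, 0.0936% in P11 MG against 0.0950% in P11 neurons, 0.117% at 8 DIV and 0.116% at 14 DIV. Of the 4, 3 were above background in adult MG, in P11 MG and at 14 DIV, 2 at 8 DIV and 1 in each neuron pool. With probes of at least 100 counts in every pool, miR-142-5p was the second most alike to miR-16 (SD 0.35) after let-7d (0.34), among 74 probes.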
